A study of Mus musculus with 30 samples.

Results

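Acute and constitutive loss of hepatocyte *Cebpa* were compared in the livers of male mice on a diet rich in fat, cholesterol and fructose (HFCFD). In HFCFD2W, the knockout was constitutive: *Cebpa* ΔHep mice carried floxed *Cebpa* and an albumin-Cre transgene, and were fed HFCFD for 2 weeks. In HFCFD8W+T10D, the loss was acute: *Cebpa* ΔHep,ERT2 mice carried floxed *Cebpa* and an albumin-Cre that tamoxifen activates, and the labels give 8 weeks of HFCFD and 10 days of tamoxifen. Each experiment had its own Cre-negative *Cebpa* fl/fl controls, which in HFCFD8W+T10D were labelled with the same tamoxifen treatment, and all mice were on a C57BL/6N background. There were 5 mice and 5 stranded poly(A) RNA-Seq libraries in each of the 4 groups, 20 of the 30 libraries of the series, with totals of 7996128 to 10257366 expected counts. The quantity tested was the genotype effect with acute loss (knockout minus control, log2) minus the genotype effect with constitutive loss. Of 12964 genes with enough counts, 1457 (11.2%) differed in genotype effect at an adjusted p under 0.05, in edgeR's quasi-likelihood test of the interaction with Benjamini-Hochberg adjustment.

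The experiments differ in the Cre line, in the time for which *Cebpa* was absent, in the time on HFCFD and in tamoxifen, and these cannot be told apart here. The albumin promoter drives both transgenes, so in the constitutive model *Cebpa* is lost while the liver matures and in the inducible model it is lost in grown hepatocytes. Mouse ages, and whether the 10 days fell within the 8 weeks, are not given in the labels. The controls of the experiments also differed from each other: 1437 genes (11.1%) were over 2-fold higher and 336 (2.59%) over 2-fold lower in the HFCFD8W+T10D controls than in the HFCFD2W controls. Between the knockouts, 1843 genes (14.2%) were over 2-fold higher and 447 (3.45%) over 2-fold lower in HFCFD8W+T10D.

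C/EBPα, the product of *Cebpa*, is a basic leucine zipper transcription factor that maintains the differentiated hepatocyte, in which it drives genes of the urea cycle, gluconeogenesis, drug metabolism and plasma protein secretion. Several other systems also set hepatocyte gene expression. Pulsed growth hormone acting through STAT5 maintains the male-biased genes, among them the major urinary proteins (Mup) that mouse liver secretes as pheromone carriers. NRF2, encoded by *Nfe2l2*, binds antioxidant response elements and induces genes of quinone reduction, glutathione conjugation and NADPH supply. p53 induces genes of cell cycle arrest and apoptosis, among them *Ccng1*.

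*Cebpa* itself was lower in the knockouts of both experiments, and the remaining level differed. In HFCFD8W+T10D, *Cebpa* was at 15.2, 25.1, 21.6, 12.9 and 11.1 CPM in *Cebpa* ΔHep,ERT2 mice and at 121, 142, 156, 149 and 150 CPM in *Cebpa* fl/fl mice. In HFCFD2W, *Cebpa* was at 3.43, 4.26, 5.68, 5.37 and 4.97 CPM in *Cebpa* ΔHep mice and at 187, 193, 171, 149 and 186 CPM in *Cebpa* fl/fl mice. The controls overlapped, knockouts did not overlap their controls in either experiment, and all 5 *Cebpa* ΔHep,ERT2 mice were above all 5 *Cebpa* ΔHep mice. For *Cebpa*, the log2 fold changes of -3.06 (SE 0.17) with acute and -5.23 (SE 0.20) with constitutive loss gave a difference of 2.17 (SE 0.25, adjusted p = 9.31e-07 in edgeR). Thus more *Cebpa* mRNA was left with acute loss, and whether it came from undeleted hepatocytes or from more mRNA per cell cannot be told apart in bulk liver. The same holds for every gene below, for which fewer cells of a type and less RNA per cell look alike. *Cebpb*, which encodes the C/EBPβ paralog, was at 22.6 to 26.4 CPM in *Cebpa* ΔHep,ERT2 and 16.8 to 31.9 CPM in their controls, against 40.8 to 53.5 CPM in *Cebpa* ΔHep and 14.5 to 28.98 CPM in theirs. *Cebpb* therefore rose above its controls in every *Cebpa* ΔHep mouse and overlapped its controls in HFCFD8W+T10D. With a log2 *Cebpb* effect of 0.05 (SE 0.15) in acute and 1.11 (SE 0.15) in constitutive loss, the difference was -1.05 (SE 0.21, edgeR adjusted p = 0.00145).

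Of the 1457 genes, 577 (4.45%) had a higher effect with acute loss and 880 (6.79%) a lower one, and this split depended on scaling, since 39.6% were on the higher side here and 52.6% with upper quartile normalization. Within HFCFD8W+T10D, 725 genes (5.59%) were over 2-fold higher and 288 (2.22%) over 2-fold lower in the knockouts at an adjusted p under 0.05. Within HFCFD2W, 248 (1.91%) were over 2-fold higher and 197 (1.52%) over 2-fold lower. Without a fold minimum, 1976 genes were higher (15.2%) and 1541 lower (11.9%) with acute loss, and 895 were higher (6.9%) and 809 lower (6.24%) with constitutive loss. The difference of effects itself exceeded 2-fold for 532 genes (4.1%). Signed log2 deviations of each knockout from the mean of its controls were also compared. Those of all 5 acute knockouts lay above those of all 5 constitutive ones for 934 genes (7.2%), and below them for 1143 (8.82%). Genes whose effects differed were sorted by these calls. An acute only gene passed 2-fold in HFCFD8W+T10D alone, a constitutive only gene passed it in HFCFD2W alone, and an opposite gene had an adjusted p under 0.05 in both with opposing signs. There were 97 acute only genes that rose (0.748% of the genes tested) and 111 that fell (0.856%), 59 constitutive only genes that rose (0.455%) and 63 that fell (0.486%), and 123 opposite genes. The remainder were 7 genes that rose (0.054%) and 12 that fell (0.0926%) over 2-fold in both experiments by different amounts, and 985 (7.6%) that passed none of these rules.

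**Figure D1:**
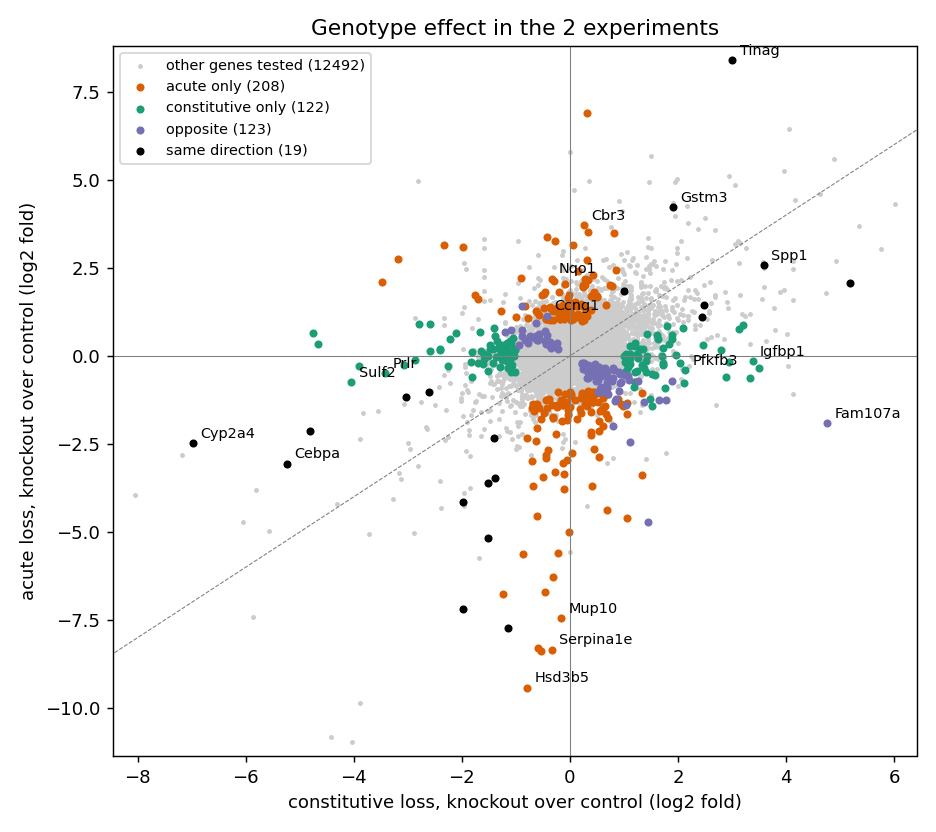
Genotype effect of each of the genes tested with constitutive loss (x axis, log2 fold of knockout over control in HFCFD2W) and with acute loss (y axis, the same in HFCFD8W+T10D). Colours mark the genes whose effects differed, by response class, and grey points the other genes. Points on the dashed diagonal have equal effects; the acute only genes (97 up and 111 down) spread along the vertical and the constitutive only genes (59 up and 63 down) along the horizontal.

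An acute only or constitutive only gene need not have been flat in the other experiment. Among the acute only genes, 79 of 97 that rose and 81 of 111 that fell had a constitutive effect under 1.5-fold, and 2 and 7 had one with an adjusted p under 0.05. Among the constitutive only genes, 44 of 59 that rose and 55 of 63 that fell had an acute effect under 1.5-fold, and 5 and 3 had one with an adjusted p under 0.05. Control livers differed over 2-fold between experiments for 37 of the 97, 40 of the 111, 25 of the 59 and 21 of the 63 genes.

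Genes that rose with acute loss included enzymes of the NRF2 pathway. *Nqo1*, the NAD(P)H quinone reductase and a standard NRF2 target, rose with acute loss and overlapped its controls with constitutive loss. In HFCFD8W+T10D, *Nqo1* was at 23.04, 40.7, 39.3, 36.2 and 41.7 CPM in *Cebpa* ΔHep,ERT2 mice and at 9.62, 11.4, 4.98, 6.91 and 6.89 CPM in *Cebpa* fl/fl mice. In HFCFD2W, *Nqo1* was at 2.37, 4.49, 4.32, 6.77 and 3.09 CPM in *Cebpa* ΔHep mice and at 5.64, 5.94, 4.78, 2.76 and 7.52 CPM in *Cebpa* fl/fl mice. All 5 *Cebpa* ΔHep,ERT2 mice were above each of the other 15 mice. *Nqo1* had a log2 fold change of 2.19 (SE 0.24) with acute loss and -0.34 (SE 0.29) with constitutive loss, a difference of 2.53 (SE 0.38, edgeR adjusted p = 5.37e-05). *Cbr3*, a carbonyl reductase, was higher by more. In HFCFD8W+T10D, *Cbr3* was at 6.28, 23.2, 11.4, 9.73 and 15.8 CPM in *Cebpa* ΔHep,ERT2 mice and at 1.16, 0.906, 1.16, 0.406 and 1.38 CPM in *Cebpa* fl/fl mice. In HFCFD2W, *Cbr3* was at 0, 0.224, 0.541, 0.894 and 1.07 CPM in *Cebpa* ΔHep mice and at 0.297, 0.148, 0.583, 0.6899 and 0.426 CPM in *Cebpa* fl/fl mice. Again no *Cebpa* ΔHep,ERT2 mouse overlapped a control or a *Cebpa* ΔHep mouse. For *Cbr3*, the log2 fold changes of 3.72 (SE 0.36) with acute and 0.26 (SE 0.66) with constitutive loss gave a difference of 3.46 (SE 0.83, adjusted p = 0.00655 in edgeR).

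*Pgd* and *G6pdx*, which make NADPH in the pentose phosphate pathway, also rose with acute loss. In HFCFD8W+T10D, *Pgd* was at 79.9998, 79.5, 74.2, 72.1 and 62.6 CPM in *Cebpa* ΔHep,ERT2 mice and at 39.9, 37.8, 37.7, 28.04 and 28.2 CPM in *Cebpa* fl/fl mice. In HFCFD2W, *Pgd* was at 34.4, 38.4, 43.2, 50.3 and 37.9 CPM in *Cebpa* ΔHep mice and at 43.3, 40.5, 39.9, 35.5 and 51.2 CPM in *Cebpa* fl/fl mice. *Pgd* was higher in every *Cebpa* ΔHep,ERT2 mouse than in any other mouse. With a log2 *Pgd* effect of 1.11 (SE 0.11) in acute and -0.04 (SE 0.11) in constitutive loss, the difference was 1.15 (SE 0.15, edgeR adjusted p = 1.28e-05). *G6pdx* was at 11.99 to 18.03 CPM in *Cebpa* ΔHep,ERT2 and 3.35 to 7.65 in their controls, and at 2.01 to 4.98 in *Cebpa* ΔHep and 2.08 to 3.27 in theirs, so that its acute controls already lay above the constitutive ones. *G6pdx* had a log2 fold change of 1.45 (SE 0.18) with acute loss and 0.20 (SE 0.23) with constitutive loss, a difference of 1.25 (SE 0.29, edgeR adjusted p = 0.00521). *Srxn1*, a sulfiredoxin that repairs oxidised peroxiredoxins, was at 50.4 to 137 CPM with acute loss against 30.5 to 43.7, and at 36.4 to 43.9 with constitutive loss against 41.6 to 51.5. For *Srxn1*, the log2 fold changes of 1.06 (SE 0.18) with acute and -0.19 (SE 0.18) with constitutive loss gave a difference of 1.25 (SE 0.25, adjusted p = 0.00167 in edgeR).

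In the NRF2 target list, 9 of 20 tested members were higher and 1 lower in the interaction (4.45% and 6.79% over all genes). Its median difference was 0.42 (medians of 0.64 with acute and -0.03 with constitutive loss), against 0.01 over all genes. The higher members were *Nqo1*, *Pgd*, *G6pdx*, *Srxn1*, *Cbr3*, *Gpx2*, *Ephx1*, *Tkt* and *Prdx1*, and the lower one was *Sod2*, the mitochondrial superoxide dismutase. For *Tkt*, the adjusted p stayed under 0.05 in 13 of 20 fits that each left out 1 mouse (highest 0.0711, without HFCFD2W *Cebpa* fl/fl replicate 5) and in 7 of 10 processing alternatives (highest 0.0862). For *Prdx1*, the adjusted p stayed under 0.05 in 5 of 20 fits that each left out 1 mouse (highest 0.0868, without HFCFD2W *Cebpa* fl/fl replicate 1) and in 6 of 10 processing alternatives (highest 0.212). For *Ephx1*, the adjusted p stayed under 0.05 in 17 of 20 fits that each left out 1 mouse (highest 0.0664, without *Cebpa* ΔHep,ERT2 replicate 4) and in 8 of 10 processing alternatives (highest 0.11). For *Sod2*, the adjusted p stayed under 0.05 in 16 of 20 fits that each left out 1 mouse (highest 0.0625, without *Cebpa* ΔHep replicate 6) and in 5 of 10 processing alternatives (highest 0.257). *Gpx2*, a glutathione peroxidase, was at the floor of 3 counts or fewer in both control groups, and its rise with acute loss was at least 4.86-fold. For *Gpx2*, the adjusted p stayed under 0.05 in 19 of 20 fits that each left out 1 mouse (highest 0.0726, without HFCFD2W *Cebpa* fl/fl replicate 2) and in 9 of 9 processing alternatives (highest 0.0469). Other members did not pass in the interaction, given here with their log2 fold changes with acute and with constitutive loss: *Gclm* (0.27 and -0.12, adjusted p of the difference = 0.0648) encodes the modifier subunit of glutamate-cysteine ligase, *Gclc* (0.01 and -0.14, adjusted p of the difference = 0.752) its catalytic subunit, and *Txnrd1* (0.22 and 0.21, adjusted p of the difference = 0.97) thioredoxin reductase. *Nfe2l2* itself changed in opposite directions and is described with the opposite genes. Hepatocyte marker mRNA and macrophage marker mRNA also moved with acute loss, as given below, and their part in these values was not tested.

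The *G6pdx* promoter is shown as one of the called NRF2 targets whose window holds the antioxidant response element core, TGACNNNGC. It is the RefSeq sequence of the 250 bases before the start (chrX:74428881-74429130, minus strand, GRCm38.p6), 5′ to 3′, and the capitals mark the reverse-strand match of that core.
G6pdx: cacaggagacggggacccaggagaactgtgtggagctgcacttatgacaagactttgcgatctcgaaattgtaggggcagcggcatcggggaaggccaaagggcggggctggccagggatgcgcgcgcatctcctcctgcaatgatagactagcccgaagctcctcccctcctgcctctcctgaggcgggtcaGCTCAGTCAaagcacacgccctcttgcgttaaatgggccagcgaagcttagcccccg
The match spans bases 57 to 49 before the start. Searched on both strands, TGACNNNGC was in the window of 2 of the 10 called NRF2 targets, *G6pdx* and *Prdx1*, in 5 of 17 tested ones (29.4%) and in 13.9% of the 9963 tested genes with a RefSeq promoter. By response class, this core was in 7 of 73 acute only genes that rose (9.59%) and 10 of 81 that fell (12.3%). For constitutive only genes the counts were 9 of 44 that rose (20.5%) and 8 of 51 that fell (15.7%).

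*Gstm1*, *Gstm2*, *Gstm3*, *Gstm4* and *Gstm6*, which encode glutathione S-transferases of the mu class, rose with acute loss. In HFCFD8W+T10D, *Gstm4* was at 51.99, 116, 81.04, 92.8 and 82.5 CPM in *Cebpa* ΔHep,ERT2 mice and at 22.2, 26.003, 15.3, 17.1 and 21.6 CPM in *Cebpa* fl/fl mice. In HFCFD2W, *Gstm4* was at 50.9, 42.1, 61.6, 58.1 and 54.7 CPM in *Cebpa* ΔHep mice and at 56.7, 64.6, 45.9, 42.1 and 75.9 CPM in *Cebpa* fl/fl mice. *Gstm4* rose above every control in HFCFD8W+T10D, but these controls lay below the HFCFD2W controls, and the knockouts of the experiments overlapped. With a log2 *Gstm4* effect of 2.05 (SE 0.20) in acute and -0.09 (SE 0.19) in constitutive loss, the difference was 2.15 (SE 0.28, edgeR adjusted p = 9.81e-06). *Gstm2* was at 167 to 375 CPM with acute loss against 34.8 to 71.4 CPM, and at 51.1 to 96.5 against 47.7 to 66.4 with constitutive loss, with overlapping controls. *Gstm1* and *Gstm3* were higher in the knockouts of both experiments without overlap, and by more with acute loss: the log2 fold changes were 2.45 and 0.85 for *Gstm1* (adjusted p of the difference = 0.000206). For *Gstm3* they were 4.23 and 1.91 (adjusted p = 0.00276). For *Gstm6* they were 0.91 and -0.04 (adjusted p = 0.00642). RSEM splits reads between such near-identical genes, so the values of single Gstm members are uncertain. Over the phase II list, 8 of 35 tested members were higher and 4 lower in the interaction (4.45% and 6.79% over all genes). Its median difference was -0.05 (medians of -0.01 with acute and -0.02 with constitutive loss). Within HFCFD8W+T10D, 10 of these members were higher and 11 lower in the knockouts (15.2% and 11.9% over all genes).

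Several p53 targets were among the genes with a higher effect in acute loss. *Phlda3*, which encodes an inhibitor of AKT signalling, was at 5.06 to 9.1003 CPM in *Cebpa* ΔHep,ERT2 and 1.32 to 3.13 in their controls, and at 0.118 to 0.9401 in *Cebpa* ΔHep and 0.445 to 1.14 in theirs. *Phlda3* had a log2 fold change of 1.83 (SE 0.25) with acute loss and -0.45 (SE 0.44) with constitutive loss, a difference of 2.28 (SE 0.51, edgeR adjusted p = 0.00392). *Aen*, an apoptosis-enhancing nuclease, was at 14.8 to 22.7 CPM with acute loss against 8.67 to 11.5, and at 6.71 to 9.84 with constitutive loss against 7.45 to 12.8. For *Aen*, the log2 fold changes of 0.82 (SE 0.16) with acute and -0.40 (SE 0.18) with constitutive loss gave a difference of 1.21 (SE 0.24, adjusted p = 0.00118 in edgeR). *Bax*, a proapoptotic BCL2 family protein, had log2 fold changes of 0.69 and -0.18 (adjusted p of the difference = 0.00149). Each of the 3 genes was above its controls in all 5 acute knockouts and overlapped its controls with constitutive loss. In the p53 target list, 6 of 19 tested members were higher and 1 lower in the interaction (4.45% and 6.79% over all genes). Its median difference was 0.44 (medians of 0.69 with acute and 0.06 with constitutive loss). *Ccng1*, *Polk* and *Ephx1* were the other higher members, and *Gdf15*, which the integrated stress response also induces, was the lower one. For *Polk*, the adjusted p stayed under 0.05 in 6 of 20 fits that each left out 1 mouse (highest 0.0884, without *Cebpa* ΔHep,ERT2 replicate 2) and in 5 of 10 processing alternatives (highest 0.108). The p53 target and inhibitor *Cdkn1a* and the p53 ligase *Mdm2* did not pass: *Cdkn1a* (0.60 and 2.72, adjusted p of the difference = 0.158) and *Mdm2* (0.64 and 0.20, adjusted p of the difference = 0.141).

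*Slc39a4*, a zinc importer, and *Apoc2*, the cofactor of lipoprotein lipase, were among the acute only genes with the smallest p. In HFCFD8W+T10D, *Slc39a4* was at 88.1, 138, 163, 178 and 114 CPM in *Cebpa* ΔHep,ERT2 mice and at 37.8, 39.7, 35.2, 28.04 and 26.96 CPM in *Cebpa* fl/fl mice. In HFCFD2W, *Slc39a4* was at 124, 68.5, 124, 81.8 and 105 CPM in *Cebpa* ΔHep mice and at 79.1, 84.2, 74.8, 86.6 and 89.1 CPM in *Cebpa* fl/fl mice. As with *Gstm4*, *Slc39a4* rose over its own controls, which lay below the HFCFD2W controls, while knockout levels overlapped. With a log2 *Slc39a4* effect of 2.02 (SE 0.18) in acute and 0.28 (SE 0.17) in constitutive loss, the difference was 1.74 (SE 0.25, edgeR adjusted p = 3.03e-05). In HFCFD8W+T10D, *Apoc2* was at 422, 373, 472, 489 and 435 CPM in *Cebpa* ΔHep,ERT2 mice and at 239, 194, 220, 228 and 200 CPM in *Cebpa* fl/fl mice. In HFCFD2W, *Apoc2* was at 269, 230, 282, 263 and 246 CPM in *Cebpa* ΔHep mice and at 273, 262, 241, 230 and 273 CPM in *Cebpa* fl/fl mice. *Apoc2* was above the other 15 mice in each *Cebpa* ΔHep,ERT2 mouse. *Apoc2* had a log2 fold change of 1.02 (SE 0.10) with acute loss and 0.01 (SE 0.10) with constitutive loss, a difference of 1.005 (SE 0.15, edgeR adjusted p = 3.94e-05). *Mbl2*, a mannose-binding lectin that starts the lectin pathway of complement, was at 532 to 1197 CPM with acute loss against 309 to 397 CPM in controls, and at 226 to 333 against 220 to 341 CPM with constitutive loss. For *Mbl2*, the log2 fold changes of 1.26 (SE 0.16) with acute and -0.04 (SE 0.16) with constitutive loss gave a difference of 1.31 (SE 0.22, adjusted p = 0.000265 in edgeR). It was the only member of the complement and coagulation list that was higher in the interaction, where 7 of 44 were lower. Over all genes, 4.45% were higher and 6.79% lower. The median difference of this list was -0.01, with 22 members above and 22 below 0.

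*Apoc2* was also 1 of 6 lipid-associated macrophage genes with a higher effect in acute loss, with *Cd9*, *Ctsd*, *Ctsb*, *Lgals3* and *Ccr2*. In that list, 6 of 22 tested members were higher and 0 lower in the interaction (4.45% and 6.79% over all genes). Its median difference was 0.60 (medians of 1.13 with acute and 0.33 with constitutive loss). *Apoc2* is also a hepatocyte gene, *Ctsd* and *Ctsb* are lysosomal proteases of many cells, and *Ccr2* marks monocytes. *Cd9*, a tetraspanin, was at 20.5 to 38.8 CPM with acute loss against 9.45 to 18.2, and at 7.74 to 16.6 with constitutive loss against 11.3 to 19.3. With a log2 *Cd9* effect of 1.24 (SE 0.21) in acute and -0.15 (SE 0.22) in constitutive loss, the difference was 1.39 (SE 0.30, edgeR adjusted p = 0.00277). For *Lgals3*, the adjusted p stayed under 0.05 in 8 of 20 fits that each left out 1 mouse (highest 0.0945, without HFCFD2W *Cebpa* fl/fl replicate 4) and in 7 of 10 processing alternatives (highest 0.0815). For *Ccr2*, the adjusted p stayed under 0.05 in 9 of 20 fits that each left out 1 mouse (highest 0.101, without HFCFD2W *Cebpa* fl/fl replicate 2) and in 7 of 10 processing alternatives (highest 0.0613). For *Ctsb*, the adjusted p stayed under 0.05 in 19 of 20 fits that each left out 1 mouse (highest 0.0537, without tamoxifen-treated *Cebpa* fl/fl replicate 4) and in 9 of 10 processing alternatives (highest 0.0528). The summed level of 4 recruited macrophage markers, which include *Ccr2*, was 15.1 to 70.0 CPM in *Cebpa* ΔHep,ERT2 (median 57.9). It was 5.58 to 8.92 CPM in their controls, and 2.69 to 5.11 and 0.932 to 2.23 CPM in the knockouts and controls of HFCFD2W. Knockouts thus lay above their controls in both experiments, with the acute knockouts highest. The 4 Kupffer cell markers summed to 671 to 1235 CPM in the acute knockouts and 400 to 805 CPM in their controls, which overlap, and to 180 to 285 and 154 to 221 CPM with constitutive loss. None of the Kupffer cell (18), MHC class II (10), lymphocyte (17) or sinusoidal endothelium (25) genes tested passed in the interaction. All 10 MHC class II genes were higher in the acute knockouts and 1 in the constitutive ones, with 0 lower in either. Over all genes, 15.2% and 6.9% were higher.

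**Figure D2:**
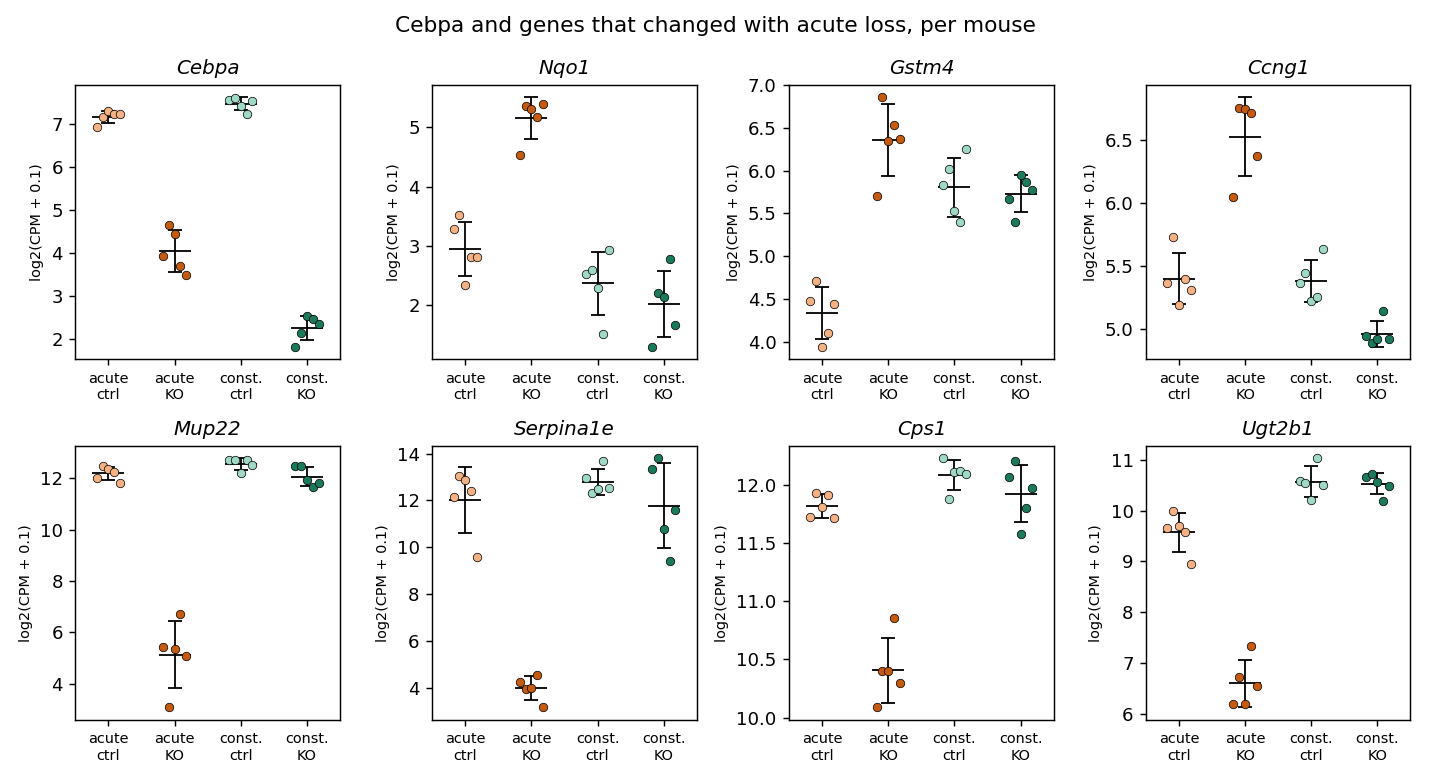
Level of Cebpa and 7 genes that changed with acute loss, as log2(CPM + 0.1) (y axis), in each of the 5 mice of the control and knockout groups of HFCFD8W+T10D (acute) and HFCFD2W (const.). Points are mice, and lines the mean with SD. Nqo1 and Ccng1 stand highest in the acute knockouts and Mup22, Serpina1e, Cps1 and Ugt2b1 lowest there, while Gstm4 in the acute knockouts overlaps the constitutive ones.

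Of the lists read here, the male-biased list had the most members with a lower effect in acute loss. In the male-biased and growth hormone list, 1 of 38 tested was higher and 18 lower in the interaction (4.45% and 6.79% over all genes). Its median difference was -1.85 (medians of -1.42 with acute and -0.23 with constitutive loss). *Prlr* was the single higher member, through its fall with constitutive loss. The list joins male-biased with growth hormone dependent genes, so a member such as *Prlr* need not be male-biased. Of the 18 lower members, 8 were Mup genes, and the others included *Serpina1e*, *Elovl3*, *Egfr*, *Cyp7b1* and *Igfbp2*. *Socs2*, the STAT5 target that curbs growth hormone signalling, and *Igfbp1* were lower in the interaction through a rise with constitutive loss: *Socs2* (-0.91 with acute and 1.77 with constitutive loss) and *Igfbp1* (-0.16 with acute and 3.38 with constitutive loss), on the log2 scale. The acute controls of *Socs2* exceeded its constitutive ones by 3.59 on that scale. The Mup genes together held 0.0936% to 0.192% of the counts of *Cebpa* ΔHep,ERT2 livers and 1.02% to 2.01% of those of their controls. With constitutive loss they held 3.27% to 5.16%, and 3.07% to 5.61% in controls. Mup mRNA thus fell without overlap in the acute knockouts and overlapped its controls in the constitutive ones, and the acute controls lay below both HFCFD2W groups.

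*Mup22* showed this in each mouse. In HFCFD8W+T10D, *Mup22* was at 42.8, 8.31, 40.8, 106 and 33.1 CPM in *Cebpa* ΔHep,ERT2 mice and at 4142, 5681, 5340, 4910 and 3636 CPM in *Cebpa* fl/fl mice. In HFCFD2W, *Mup22* was at 5688, 5650, 3872, 3273 and 3637 CPM in *Cebpa* ΔHep mice and at 6644, 6758, 4693, 6666 and 5826 CPM in *Cebpa* fl/fl mice. No acute knockout reached a level seen in the other groups. *Mup22* had a log2 fold change of -6.69 (SE 0.66) with acute loss and -0.47 (SE 0.51) with constitutive loss, a difference of -6.22 (SE 0.79, edgeR adjusted p = 7.21e-06). In HFCFD8W+T10D, *Mup10* was at 0, 0, 0, 1.305 and 0 CPM in *Cebpa* ΔHep,ERT2 mice and at 27.1, 67.01, 27.6, 45.1 and 34.04 CPM in *Cebpa* fl/fl mice. In HFCFD2W, *Mup10* was at 37.9, 42.9, 29.1, 39.7 and 39.8 CPM in *Cebpa* ΔHep mice and at 52.5, 40.1, 37.1, 39.3 and 42.7 CPM in *Cebpa* fl/fl mice. *Mup10* gave no count in 4 of 5 acute knockouts, and replicate 4, which stands apart in *Cyp2a4* and *Fam107a* as well, had the remaining level. *Mup10* had an adjusted p of the difference of 7.65e-07. *Mup2* was at the floor in the acute knockouts and at least 81.5-fold lower there than in controls. *Mup16* had log2 fold changes of -7.72 and -1.15 (adjusted p of the difference = 8.65e-07). *Mup11* and *Mup18* also fell with acute loss and overlapped their controls with constitutive loss. *Mup3* fell in both, to 4.77 to 91.6 CPM against 3448 to 6748 with acute loss and to 1806 to 5252 against 9845 to 14167 with constitutive loss (adjusted p of the difference = 2.47e-05). The upstream 250 bases of *Mup2*, *Mup18*, *Mup11* and *Mup3* shared 94%, 89.2%, 83.2% and 68.8% of positions with those of *Mup10*. *Mup19*, *Mup17*, *Mup15* and *Mup7* did not pass in the interaction, and their upstream bases shared 93.2%, 92.4%, 91.6% and 44.4%. These bases lie outside the mRNA, and the identity of the Mup transcripts was not measured. RSEM divides reads among similar copies, so single Mup values are uncertain.

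*Serpina1e*, an α1-antitrypsin paralog of male mouse liver, showed one of the largest falls. In HFCFD8W+T10D, *Serpina1e* was at 18.9, 15.4, 15.9, 23.1 and 8.83 CPM in *Cebpa* ΔHep,ERT2 mice and at 4502, 8416, 7544, 5391 and 777 CPM in *Cebpa* fl/fl mice. In HFCFD2W, *Serpina1e* was at 10330, 14315, 1778, 678 and 3037 CPM in *Cebpa* ΔHep mice and at 7983, 5140, 5797, 13070 and 5829 CPM in *Cebpa* fl/fl mice. It was over an order of magnitude lower in every acute knockout than in any other mouse. For *Serpina1e*, the log2 fold changes of -8.34 (SE 1.08) with acute and -0.33 (SE 0.78) with constitutive loss gave a difference of -8.01 (SE 1.26, adjusted p = 0.000117 in edgeR). Its promoter is shown because the window holds the C/EBP core TTGCNNAA, in capitals, in the RefSeq sequence 5′ to 3′ (chr12:103956898-103957147, minus strand, GRCm38.p6).
Serpina1e: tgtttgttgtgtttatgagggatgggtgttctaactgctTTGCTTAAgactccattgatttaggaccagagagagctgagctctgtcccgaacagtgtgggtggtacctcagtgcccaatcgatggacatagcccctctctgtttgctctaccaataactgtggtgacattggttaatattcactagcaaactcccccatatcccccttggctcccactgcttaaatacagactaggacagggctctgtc
The match lies 211 to 204 bases before the start. Searched on both strands, TTGCNNAA was in the window of 17 of the 81 acute only genes that fell and have a RefSeq promoter (21%), in 8 of 73 that rose (11%), and in 9.64% of tested genes. Among constitutive only genes it was in 8 of 51 that fell (15.7%) and 3 of 44 that rose (6.82%). The STAT5 palindrome TTCNNNGAA was in 1 of 13 called members of the male-biased and growth hormone list (7.69%) and 3 of 29 tested ones (10.3%). It was in 7.32% of tested genes. These counts describe letters and not binding.

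*Hsd3b5*, a 3-ketosteroid reductase of male liver, was at 0, 0, 0, 0 and 0 CPM in *Cebpa* ΔHep,ERT2 and 2.09, 6.34, 22.5, 15.8 and 0.0984 CPM in their controls, at least 31.4-fold lower. In HFCFD2W, *Hsd3b5* was at 85.7 to 237 CPM in *Cebpa* ΔHep and 214 to 332 CPM in controls, which overlap and lie above the acute controls. For *Hsd3b5*, the adjusted p stayed under 0.05 in 15 of 20 fits that each left out 1 mouse (highest 0.0611, without tamoxifen-treated *Cebpa* fl/fl replicate 3) and in 8 of 10 processing alternatives (highest 0.222). *Elovl3*, a fatty acid elongase with male-biased expression, was at 0.562, 0.165, 0.217, 5.57 and 0.7598 CPM in the acute knockouts and 32.2, 72.2, 24.9, 150 and 36.6 CPM in their controls. In HFCFD2W, *Elovl3* was at 65.6, 68.8, 22.2, 37.4 and 37.9 CPM in *Cebpa* ΔHep mice and at 56.7, 49.3, 45.7, 64.4 and 55.8 CPM in *Cebpa* fl/fl mice. *Elovl3* fell below every control with acute loss alone. With a log2 *Elovl3* effect of -5.58 (SE 0.64) in acute and -0.22 (SE 0.45) in constitutive loss, the difference was -5.36 (SE 0.79, edgeR adjusted p = 4.84e-05). *Egfr*, the epidermal growth factor receptor, was at 97.1 to 198 CPM against 359 to 611 with acute loss and at 763 to 1226 against 466 to 823 with constitutive loss. *Egfr* had a log2 fold change of -1.77 (SE 0.33) with acute loss and 0.70 (SE 0.32) with constitutive loss, a difference of -2.47 (SE 0.46, edgeR adjusted p = 0.000612). The growth hormone receptor and its transducer did not pass: *Ghr* (-0.68 and -0.17, adjusted p of the difference = 0.0748) and *Stat5b* (-0.18 and -0.15, adjusted p of the difference = 0.916).

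*Cps1*, *Ugt2b1* and *Nr1i3* also fell with acute loss. In HFCFD8W+T10D, *Cps1* was at 1090, 1351, 1355, 1848 and 1261 CPM in *Cebpa* ΔHep,ERT2 mice and at 3384, 3898, 3578, 3858 and 3349 CPM in *Cebpa* fl/fl mice. In HFCFD2W, *Cps1* was at 4287, 4707, 3048, 3556 and 4003 CPM in *Cebpa* ΔHep mice and at 4793, 3750, 4411, 4428 and 4364 CPM in *Cebpa* fl/fl mice. *Cps1*, the first enzyme of the urea cycle, was below each of the other 15 mice in every acute knockout. For *Cps1*, the log2 fold changes of -1.39 (SE 0.14) with acute and -0.15 (SE 0.14) with constitutive loss gave a difference of -1.24 (SE 0.20, adjusted p = 0.000143 in edgeR). In HFCFD8W+T10D, *Ugt2b1* was at 73.2, 106, 72.9, 161 and 93.7 CPM in *Cebpa* ΔHep,ERT2 mice and at 811, 1013, 831, 762 and 493 CPM in *Cebpa* fl/fl mice. In HFCFD2W, *Ugt2b1* was at 1625, 1684, 1514, 1170 and 1427 CPM in *Cebpa* ΔHep mice and at 1535, 1480, 1179, 2091 and 1444 CPM in *Cebpa* fl/fl mice. *Ugt2b1*, a glucuronosyltransferase, fell below its controls with acute loss, and these controls were themselves below the HFCFD2W controls. With a log2 *Ugt2b1* effect of -2.95 (SE 0.30) in acute and -0.06 (SE 0.28) in constitutive loss, the difference was -2.89 (SE 0.40, edgeR adjusted p = 2.47e-05). *Nr1i3*, the nuclear receptor CAR that governs drug metabolism genes, was at 24.8 to 33.4 CPM with acute loss against 60.7 to 111, and at 38.9 to 62.3 with constitutive loss against 57.2 to 79.4. *Nr1i3* had a log2 fold change of -1.38 (SE 0.15) with acute loss and -0.23 (SE 0.14) with constitutive loss, a difference of -1.15 (SE 0.20, edgeR adjusted p = 0.000416).

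In the urea cycle list, 0 of 9 tested members were higher and 3 lower in the interaction (4.45% and 6.79% over all genes). Its median difference was -0.41 (medians of -0.43 with acute and -0.12 with constitutive loss). The lower members were *Cps1*, *Otc* (-0.36 and 0.31, adjusted p of the difference = 0.0153), the ornithine transcarbamylase, and *Asl*. For *Asl*, the adjusted p stayed under 0.05 in 19 of 20 fits that each left out 1 mouse (highest 0.0534, without *Cebpa* ΔHep replicate 6) and in 9 of 10 processing alternatives (highest 0.0634). In the amino acid catabolism list, 0 of 29 tested members were higher and 5 lower in the interaction (4.45% and 6.79% over all genes). Its median difference was -0.20 (medians of -0.33 with acute and -0.11 with constitutive loss). The lower members were *Tat*, through its rise with constitutive loss, and *Aass*, *Ido2*, *Tdo2* and *Ivd*, enzymes of lysine, tryptophan and leucine breakdown. For *Ivd*, the adjusted p stayed under 0.05 in 12 of 20 fits that each left out 1 mouse (highest 0.0675, without tamoxifen-treated *Cebpa* fl/fl replicate 4) and in 8 of 10 processing alternatives (highest 0.0773). In the cytochrome P450 list, 1 of 34 tested members was higher and 5 lower in the interaction (4.45% and 6.79% over all genes). Its median difference was -0.49 (medians of -0.86 with acute and -0.12 with constitutive loss). In the steroid and retinoid list, 1 of 28 tested members was higher and 10 lower in the interaction (4.45% and 6.79% over all genes). Its median difference was -0.36 (medians of -0.16 with acute and 0.15 with constitutive loss). The hepatocyte transcription factor list had 7 lower and 0 higher of 31 (6.79% and 4.45% over all genes). Its median difference was -0.36 (medians of -0.44 with acute and -0.11 with constitutive loss). *Thrb*, *Hnf4a*, *Onecut2*, *Esr1*, *Klf15*, *Foxa1* and *Foxa3* were the lower ones, *Esr1* through its rise with constitutive loss. For *Foxa3*, the adjusted p stayed under 0.05 in 9 of 20 fits that each left out 1 mouse (highest 0.0871, without tamoxifen-treated *Cebpa* fl/fl replicate 4) and in 7 of 10 processing alternatives (highest 0.07). *Hnf4a*, a master regulator of hepatocyte genes, was at 407 to 550 CPM in the acute knockouts and 643 to 847 in their controls, and at 466 to 578 in the constitutive knockouts and 429 to 504 in theirs. For *Hnf4a*, the log2 fold changes of -0.58 (SE 0.09) with acute and 0.14 (SE 0.09) with constitutive loss gave a difference of -0.72 (SE 0.13, adjusted p = 0.000512 in edgeR).

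The 6 hepatocyte markers that were summed were *Alb*, *Ttr*, *Apoa1*, *Serpina1c*, *Cyp2e1* and *Cps1*. *Alb*, *Cyp2e1* and *Cps1* were themselves lower in the interaction, so the sum holds some of these falls and is no separate measure of hepatocytes. The sum was 50412 to 109006 CPM in *Cebpa* ΔHep,ERT2 (median 61926) and 112899 to 139581 CPM in their controls, which do not overlap. With constitutive loss it was 115617 to 168198 CPM (median 154046) and 116924 to 145983 CPM in controls (median 123775). Its part in the falls of hepatocyte genes was not tested.

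*Hopx*, *Mcm10* and *Obp2a* had among the smallest p of acute only genes that fell. In HFCFD8W+T10D, *Hopx* was at 11.8, 12.3, 12.2, 8.07 and 6.55 CPM in *Cebpa* ΔHep,ERT2 mice and at 37.9, 37.8, 56.9, 36.5 and 57.7 CPM in *Cebpa* fl/fl mice. In HFCFD2W, *Hopx* was at 49.2, 53.6, 37.6, 34.9 and 34.5 CPM in *Cebpa* ΔHep mice and at 28.3, 33.2, 30.4, 43.5 and 24.8 CPM in *Cebpa* fl/fl mice. *Hopx*, a homeodomain protein without DNA binding, was lowest in the acute knockouts and overlapped between the other groups. With a log2 *Hopx* effect of -2.15 (SE 0.20) in acute and 0.39 (SE 0.19) in constitutive loss, the difference was -2.54 (SE 0.28, edgeR adjusted p = 8.65e-07). In HFCFD8W+T10D, *Mcm10* was at 4.59, 5.43, 3.47, 7.95 and 4.75 CPM in *Cebpa* ΔHep,ERT2 mice and at 32.6, 39.6, 49.8, 38.8 and 30.3 CPM in *Cebpa* fl/fl mice. In HFCFD2W, *Mcm10* was at 148, 120, 80.8, 65.9 and 68.1 CPM in *Cebpa* ΔHep mice and at 78.7, 59.2, 75.1, 52.3 and 68.97 CPM in *Cebpa* fl/fl mice. *Mcm10*, a replication factor, fell with acute loss although its acute controls were below the HFCFD2W controls. *Mcm10* had a log2 fold change of -2.87 (SE 0.29) with acute loss and 0.53 (SE 0.24) with constitutive loss, a difference of -3.41 (SE 0.38, edgeR adjusted p = 8.65e-07). The cell cycle list had 2 members with a higher and 1 with a lower effect of 41 (4.45% and 6.79% over all genes). Its median difference was 0.59. Within HFCFD8W+T10D, 33 members were higher and 1 lower in the knockouts (15.2% and 11.9% over all genes). Within HFCFD2W, 2 were higher and 1 lower (6.9% and 6.24% over all genes). *Obp2a*, an odorant-binding lipocalin, was at 3.93, 3.13, 5.85, 17.4 and 8.36 CPM in the acute knockouts and 106, 178, 227, 312 and 92.97 in their controls. In HFCFD2W, *Obp2a* was at 42.1, 29.2, 27.3, 16.6 and 40.96 CPM in *Cebpa* ΔHep mice and at 26.1, 6.53, 4.78, 24.1 and 14.3 CPM in *Cebpa* fl/fl mice. *Obp2a* was high in the acute controls alone, and acute knockouts overlapped both HFCFD2W groups. For *Obp2a*, the log2 fold changes of -4.60 (SE 0.47) with acute and 1.05 (SE 0.44) with constitutive loss gave a difference of -5.65 (SE 0.63, adjusted p = 8.65e-07 in edgeR). *Plin4*, a lipid droplet perilipin, was likewise highest in the acute controls, with 15.6 to 84.8 CPM in acute controls, 2.47 to 6.17 in acute knockouts, and 2.72 to 7.03 and 1.66 to 5.95 in the knockouts and controls of HFCFD2W (adjusted p of the difference = 3.5e-05).

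Of the genes that rose with constitutive loss alone, *Pfkfb3* had the smallest p. In HFCFD8W+T10D, *Pfkfb3* was at 9.93, 13.7, 14.3, 18.03 and 9.21 CPM in *Cebpa* ΔHep,ERT2 mice and at 12.98, 24.5, 17.8, 9.85 and 20.6 CPM in *Cebpa* fl/fl mice. In HFCFD2W, *Pfkfb3* was at 78.3, 67.7, 92.99, 74.7 and 73.6 CPM in *Cebpa* ΔHep mice and at 9.35, 5.94, 17.02, 27.9 and 27.5 CPM in *Cebpa* fl/fl mice. *Pfkfb3*, which makes the glycolytic activator fructose 2,6-bisphosphate, was higher in all 5 *Cebpa* ΔHep mice than in any other mouse. With a log2 *Pfkfb3* effect of -0.40 (SE 0.30) in acute and 2.14 (SE 0.29) in constitutive loss, the difference was -2.53 (SE 0.41, edgeR adjusted p = 0.000181). In HFCFD8W+T10D, *Tat* was at 438, 407, 884, 1165 and 211 CPM in *Cebpa* ΔHep,ERT2 mice and at 916, 1492, 452, 782 and 795 CPM in *Cebpa* fl/fl mice. In HFCFD2W, *Tat* was at 2682, 2837, 2504, 2821 and 3510 CPM in *Cebpa* ΔHep mice and at 696, 762, 791, 1208 and 1557 CPM in *Cebpa* fl/fl mice. *Tat*, the tyrosine aminotransferase that glucocorticoids induce, overlapped its controls with acute loss and stood above them with constitutive loss. *Tat* had a log2 fold change of -0.51 (SE 0.32) with acute loss and 1.52 (SE 0.33) with constitutive loss, a difference of -2.03 (SE 0.46, edgeR adjusted p = 0.00411). *Fkbp5*, a further glucocorticoid-induced gene, was at 59.6 to 92.9 CPM in *Cebpa* ΔHep against 22.6 to 32.6 CPM in controls, and at 79.2 to 274 against 121 to 224 CPM with acute loss. For *Fkbp5*, the log2 fold changes of -0.15 (SE 0.27) with acute and 1.42 (SE 0.29) with constitutive loss gave a difference of -1.57 (SE 0.39, adjusted p = 0.00857 in edgeR). Its acute controls exceeded its constitutive ones by 2.56 on the log2 scale.

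*Igfbp1*, an insulin-repressed IGF binding protein, was at 230, 104, 246, 280 and 318 CPM in *Cebpa* ΔHep and 17.96, 5.79, 8.86, 52.2 and 28.4 in controls. In HFCFD8W+T10D, *Igfbp1* was at 77.2, 70.7, 137, 150 and 47.02 CPM in *Cebpa* ΔHep,ERT2 mice and at 123, 171, 27.3, 68.5 and 146 CPM in *Cebpa* fl/fl mice. *Igfbp1* rose above its controls with constitutive loss, and the knockouts of the experiments overlapped. With a log2 *Igfbp1* effect of -0.16 (SE 0.55) in acute and 3.38 (SE 0.61) in constitutive loss, the difference was -3.54 (SE 0.81, edgeR adjusted p = 0.00471). *Lpin1*, a phosphatidate phosphatase induced in fasting, was at 545 to 1044 CPM against 51.8 to 287 with constitutive loss and at 55.8 to 686 against 192 to 650 with acute loss. *Lpin1* had a log2 fold change of -0.76 (SE 0.45) with acute loss and 2.12 (SE 0.47) with constitutive loss, a difference of -2.87 (SE 0.65, edgeR adjusted p = 0.00418). *Angptl4*, an inhibitor of lipoprotein lipase, and *Esr1*, the estrogen receptor α, also rose with constitutive loss alone: *Angptl4* (-0.05 with acute and 1.12 with constitutive loss) and *Esr1* (0.34 with acute and 1.83 with constitutive loss), on the log2 scale. For both, the acute controls were above the constitutive ones without overlap and the knockouts overlapped, so that the rise with constitutive loss brought them to levels the inducible mice had in either genotype. For *Pck1*, the gluconeogenic enzyme, the adjusted p stayed under 0.05 in 12 of 20 fits that each left out 1 mouse (highest 0.0709, without HFCFD2W *Cebpa* fl/fl replicate 2) and in 8 of 10 processing alternatives (highest 0.0814).

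In HFCFD8W+T10D, *Dnajb1* was at 21.7, 24.1, 29.6, 23.4 and 13.3 CPM in *Cebpa* ΔHep,ERT2 mice and at 23.8, 20.2, 23.5, 21.6 and 21.8 CPM in *Cebpa* fl/fl mice. In HFCFD2W, *Dnajb1* was at 28.8, 40.2, 55.3, 34.5 and 47.5 CPM in *Cebpa* ΔHep mice and at 14.7, 17.2, 16.2, 18.6 and 19.02 CPM in *Cebpa* fl/fl mice. *Dnajb1*, an HSP40 cochaperone, rose above its controls in HFCFD2W, where these were lower than the controls of HFCFD8W+T10D. For *Dnajb1*, the log2 fold changes of 0.01 (SE 0.16) with acute and 1.26 (SE 0.16) with constitutive loss gave a difference of -1.25 (SE 0.23, adjusted p = 0.000549 in edgeR). *Jun*, an AP-1 subunit, had 13.7 to 29.3 CPM against 4.31 to 7.57 with constitutive loss and 12.6 to 25.1 against 9.39 to 24.8 with acute loss. With a log2 *Jun* effect of -0.0005 (SE 0.30) in acute and 1.71 (SE 0.34) in constitutive loss, the difference was -1.71 (SE 0.46, edgeR adjusted p = 0.0139). *Bdp1*, a subunit of TFIIIB, and *Zfp9*, a zinc finger protein, had the smallest p beside *Pfkfb3* and *Dnajb1*: *Bdp1* (-0.15 and 1.10, adjusted p of the difference = 0.000468) and *Zfp9* (0.03 and 1.96, adjusted p of the difference = 0.000815).

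The clock gene *Arntl* was in this class too, with controls that differed by 4.94 on the log2 scale. In HFCFD8W+T10D, *Arntl* was at 11.9, 8.64, 9.32, 16.8 and 21.9 CPM in *Cebpa* ΔHep,ERT2 mice and at 14.9, 13.5, 13.2, 15.7 and 20.7 CPM in *Cebpa* fl/fl mice. In HFCFD2W, *Arntl* was at 1.18, 5.05, 1.62, 1.28 and 1.07 CPM in *Cebpa* ΔHep mice and at 0.445, 0.891, 0.466, 0.138 and 0.568 CPM in *Cebpa* fl/fl mice. Both inducible groups were above both constitutive groups. For *Arntl*, the adjusted p stayed under 0.05 in 11 of 20 fits that each left out 1 mouse (highest 0.149, without *Cebpa* ΔHep replicate 3) and in 9 of 10 processing alternatives (highest 0.0725). The clock gene *Dbp* went the other way in controls, by -4.61, and its log2 fold changes were 0.37 and -0.96 (adjusted p of the difference = 0.0919). In the clock list, 1 of 21 tested members was higher and 3 lower in the interaction (4.45% and 6.79% over all genes). Its median difference was -0.30 (medians of -0.25 with acute and 0.05 with constitutive loss). The hour of tissue collection is not given in the labels, and the part of the clock in the genes of this class was not tested.

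**Figure D3:**
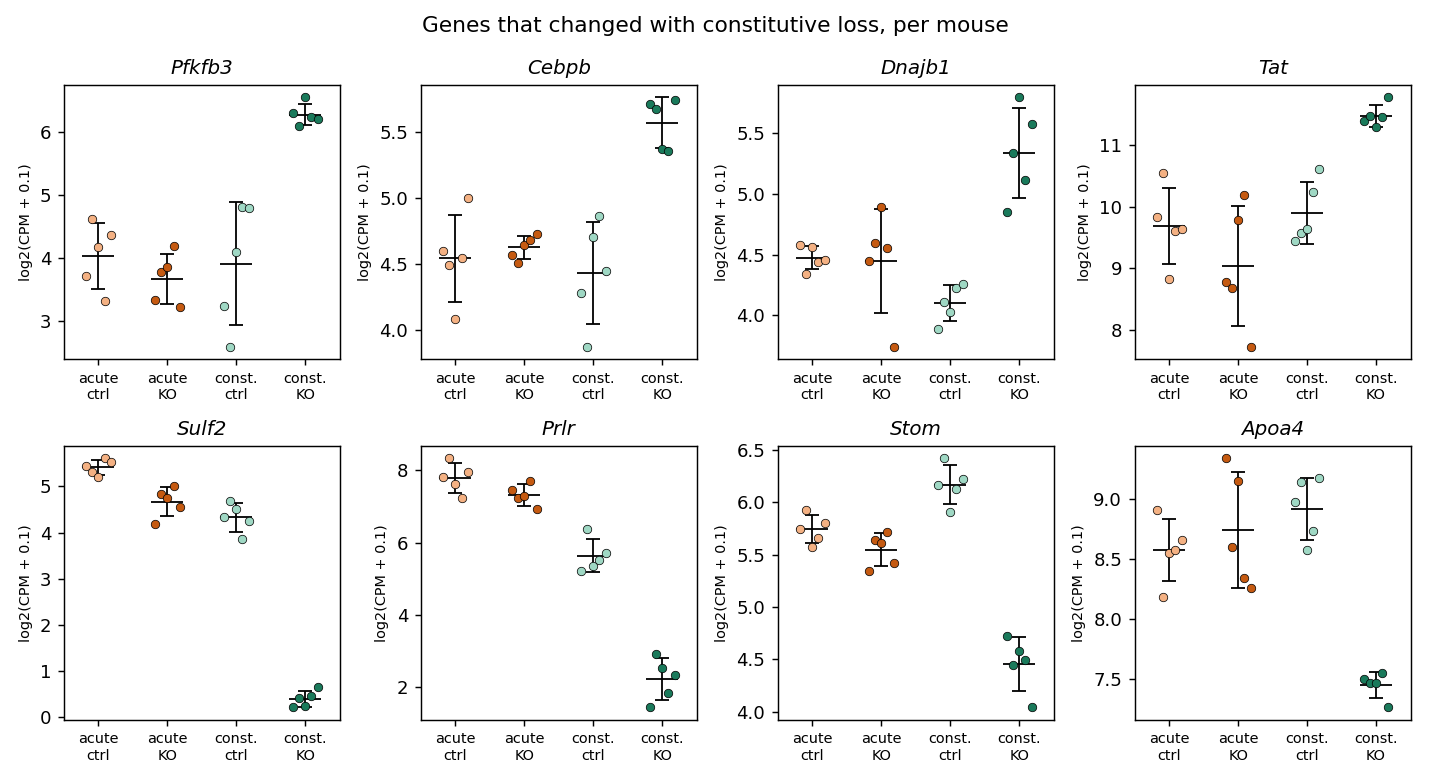
Level of 8 genes that changed with constitutive loss, as log2(CPM + 0.1) (y axis), in each of the 5 mice of the control and knockout groups of HFCFD8W+T10D (acute) and HFCFD2W (const.). Points are mice, and lines the mean with SD. In the upper row the constitutive knockouts stand above their controls, and in the lower row below them, while acute knockouts overlap their controls for each gene but Sulf2.

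*Sulf2* and *Prlr* had the smallest p after *Stom* among genes that fell over 2-fold with constitutive loss alone. *Sulf2* removes 6-O-sulfate groups from heparan sulfate outside the cell. In HFCFD8W+T10D, *Sulf2* was at 18.3, 28.6, 26.8, 31.9 and 23.6 CPM in *Cebpa* ΔHep,ERT2 mice and at 43.2, 39.7, 36.8, 48.9 and 46.04 CPM in *Cebpa* fl/fl mice. In HFCFD2W, *Sulf2* was at 1.06, 1.23, 1.08, 1.28 and 1.48 CPM in *Cebpa* ΔHep mice and at 20.2, 25.5, 22.7, 14.3 and 19.02 CPM in *Cebpa* fl/fl mice. *Sulf2* was below 2 CPM in each *Cebpa* ΔHep mouse, and it was also lower than in controls, by less, in each *Cebpa* ΔHep,ERT2 mouse. *Sulf2* had a log2 fold change of -0.74 (SE 0.19) with acute loss and -4.04 (SE 0.30) with constitutive loss, a difference of 3.30 (SE 0.36, edgeR adjusted p = 8.65e-07). In HFCFD8W+T10D, *Prlr* was at 175, 150, 155, 210 and 121 CPM in *Cebpa* ΔHep,ERT2 mice and at 223, 324, 196, 151 and 247 CPM in *Cebpa* fl/fl mice. In HFCFD2W, *Prlr* was at 2.603, 7.41, 5.68, 3.45 and 4.97 CPM in *Cebpa* ΔHep mice and at 37.3, 83.4, 40.8, 46.1 and 51.8 CPM in *Cebpa* fl/fl mice. *Prlr*, the prolactin receptor, overlapped its controls with acute loss, and the HFCFD8W+T10D controls were above the HFCFD2W controls. For *Prlr*, the log2 fold changes of -0.49 (SE 0.21) with acute and -3.42 (SE 0.26) with constitutive loss gave a difference of 2.93 (SE 0.33, adjusted p = 8.65e-07 in edgeR). The sequence before a *Prlr* start holds a match of the C/EBP core, in capitals, and is shown for comparison with *Serpina1e*, whose response was the reverse (RefSeq, chr15:10176988-10177237, plus strand, GRCm38.p6, 5′ to 3′).
Prlr: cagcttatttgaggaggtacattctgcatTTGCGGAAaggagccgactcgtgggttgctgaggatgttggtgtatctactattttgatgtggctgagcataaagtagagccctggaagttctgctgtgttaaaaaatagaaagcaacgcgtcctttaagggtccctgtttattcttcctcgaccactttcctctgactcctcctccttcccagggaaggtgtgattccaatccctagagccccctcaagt
The match lies 221 to 214 bases before this start, and another *Prlr* start has it 121 to 114 bases before.

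*Stom*, *Fat1* and *Apoa4* also fell with constitutive loss alone. In HFCFD8W+T10D, *Stom* was at 40.5, 49.8, 48.9, 52.5 and 42.8 CPM in *Cebpa* ΔHep,ERT2 mice and at 53.5, 60.8, 47.6, 50.4 and 55.7 CPM in *Cebpa* fl/fl mice. In HFCFD2W, *Stom* was at 26.3, 21.7, 23.8, 22.5 and 16.4 CPM in *Cebpa* ΔHep mice and at 71.5, 85.5, 60.04, 69.8 and 74.4 CPM in *Cebpa* fl/fl mice. *Stom*, a membrane protein of the stomatin family, was lower in all 5 *Cebpa* ΔHep mice than in any other mouse. With a log2 *Stom* effect of -0.19 (SE 0.10) in acute and -1.70 (SE 0.11) in constitutive loss, the difference was 1.51 (SE 0.15, edgeR adjusted p = 4.52e-07). *Fat1*, an atypical cadherin, was at 6.45 to 8.99 CPM in *Cebpa* ΔHep against 19.4 to 27.05 in controls, and at 26.3 to 48.8 against 22.7 to 31.9 with acute loss. *Fat1* had a log2 fold change of 0.31 (SE 0.17) with acute loss and -1.49 (SE 0.19) with constitutive loss, a difference of 1.80 (SE 0.25, edgeR adjusted p = 2.94e-05). *Apoa4*, an apolipoprotein that rises in fatty liver, was at 181, 177, 177, 187 and 154 CPM in *Cebpa* ΔHep and 503, 563, 381, 425 and 577 in controls. In HFCFD8W+T10D, *Apoa4* was at 648, 388, 567, 325 and 307 CPM in *Cebpa* ΔHep,ERT2 mice and at 480, 291, 374, 381 and 405 CPM in *Cebpa* fl/fl mice. *Apoa4* was lowest in the constitutive knockouts and spread widely in the acute knockouts. For *Apoa4*, the log2 fold changes of 0.21 (SE 0.20) with acute and -1.48 (SE 0.20) with constitutive loss gave a difference of 1.69 (SE 0.28, adjusted p = 0.000194 in edgeR). *Akr1d1*, the 5β-reductase of bile acid synthesis, was at 37.4 to 81.4 CPM against 138 to 190 with constitutive loss and at 123 to 304 against 207 to 296 with acute loss. With a log2 *Akr1d1* effect of -0.24 (SE 0.20) in acute and -1.60 (SE 0.20) in constitutive loss, the difference was 1.36 (SE 0.28, edgeR adjusted p = 0.0019). *Rnf43*, a Wnt target that degrades Frizzled receptors, had its highest levels in the HFCFD2W controls, at 16.5 to 27.5 CPM, against 4.47 to 9.58 in *Cebpa* ΔHep, 3.32 to 10.4 in *Cebpa* ΔHep,ERT2 and 5.43 to 12.4 in the acute controls (adjusted p of the difference = 0.000789). *Srebf1*, which encodes the lipogenic factor SREBP1, was called in this class, but the adjusted p stayed under 0.05 in 12 of 20 fits that each left out 1 mouse (highest 0.111, without *Cebpa* ΔHep,ERT2 replicate 1) and in 8 of 10 processing alternatives (highest 0.0679).

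Opposite effects were found for 30 genes that were higher with acute and lower with constitutive loss (0.231%) and 93 that were lower with acute and higher with constitutive loss (0.717%). Their effects were smaller, with median log2 fold changes of 0.50 and -0.59 in the 30, and of -0.49 and 0.54 in the 93. In HFCFD8W+T10D, *Ccng1* was at 66.1, 108, 107, 105 and 82.9 CPM in *Cebpa* ΔHep,ERT2 mice and at 41.1, 53.04, 36.4, 42.1 and 39.5 CPM in *Cebpa* fl/fl mice. In HFCFD2W, *Ccng1* was at 30.6, 29.4, 30.1, 35.1 and 30.1 CPM in *Cebpa* ΔHep mice and at 40.96, 43.3, 37.2, 38.1 and 49.7 CPM in *Cebpa* fl/fl mice. *Ccng1*, cyclin G1, was above its controls in each acute knockout and below them in each constitutive knockout, with overlapping controls. *Ccng1* had a log2 fold change of 1.15 (SE 0.13) with acute loss and -0.43 (SE 0.14) with constitutive loss, a difference of 1.58 (SE 0.19, edgeR adjusted p = 3.33e-06). In HFCFD8W+T10D, *Nfe2l2* was at 71.6, 101, 71.3, 54.3 and 63.8 CPM in *Cebpa* ΔHep,ERT2 mice and at 57.7, 44.2, 46.6, 52.7 and 46.8 CPM in *Cebpa* fl/fl mice. In HFCFD2W, *Nfe2l2* was at 32.1, 28.8, 31.2, 34.5 and 30.5 CPM in *Cebpa* ΔHep mice and at 42.6, 60.9, 42.7, 45.9 and 48.4 CPM in *Cebpa* fl/fl mice. *Nfe2l2* overlapped its controls with acute loss and did not with constitutive loss. For *Nfe2l2*, the log2 fold changes of 0.54 (SE 0.12) with acute and -0.61 (SE 0.12) with constitutive loss gave a difference of 1.16 (SE 0.17, adjusted p = 3.75e-05 in edgeR). *Cnp*, a cyclic nucleotide phosphodiesterase, did not overlap its controls in either experiment, at 15.2 to 17.8 CPM against 6.49 to 11.8 with acute loss and at 8.19 to 10.7 against 13.4 to 14.9 with constitutive loss. With a log2 *Cnp* effect of 0.95 (SE 0.12) in acute and -0.62 (SE 0.12) in constitutive loss, the difference was 1.57 (SE 0.17, edgeR adjusted p = 8.65e-07). *Rab32*, a small GTPase of organelle traffic, had log2 fold changes of 0.31 with acute and -0.94 with constitutive loss (adjusted p of the difference = 1.7e-05). *Elovl5*, an elongase of polyunsaturated fatty acids, had log2 fold changes of 0.69 and -1.20 (adjusted p of the difference = 0.000512).

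In the reverse direction, *Gcnt4*, a glycosyltransferase of core O-glycans, had the smallest p. In HFCFD8W+T10D, *Gcnt4* was at 0.843, 1.07, 1.08, 1.54 and 1.42 CPM in *Cebpa* ΔHep,ERT2 mice and at 4.404, 6.47, 4.403, 5.28 and 3.34 CPM in *Cebpa* fl/fl mice. In HFCFD2W, *Gcnt4* was at 11.5, 8.75, 8.65, 7.03 and 9.94 CPM in *Cebpa* ΔHep mice and at 7.42, 4.01, 5.95, 4.001 and 5.11 CPM in *Cebpa* fl/fl mice. *Gcnt4* fell below its controls with acute loss, and its rise with constitutive loss overlapped in level with its controls. *Gcnt4* had a log2 fold change of -1.997 (SE 0.24) with acute loss and 0.79 (SE 0.20) with constitutive loss, a difference of -2.79 (SE 0.31, edgeR adjusted p = 8.65e-07). In HFCFD8W+T10D, *Taf2* was at 10.2, 11.2, 11.3, 9.01 and 10.3 CPM in *Cebpa* ΔHep,ERT2 mice and at 15.1, 41.8, 28.4, 21.4 and 29.7 CPM in *Cebpa* fl/fl mice. In HFCFD2W, *Taf2* was at 36.4, 32.9, 29.2, 31.8 and 26.5 CPM in *Cebpa* ΔHep mice and at 17.96, 14.5, 15.97, 12.3 and 15.6 CPM in *Cebpa* fl/fl mice. *Taf2*, a TFIID subunit, separated knockouts from controls in both experiments, in opposite directions. For *Taf2*, the log2 fold changes of -1.39 (SE 0.19) with acute and 1.04 (SE 0.19) with constitutive loss gave a difference of -2.42 (SE 0.27, adjusted p = 8.65e-07 in edgeR). *Plce1*, a phospholipase C, and *Strn3*, a striatin, also separated in both: *Plce1* (-0.87 and 0.58, adjusted p of the difference = 9.81e-06) and *Strn3* (-0.23 and 0.47, adjusted p of the difference = 9.01e-06). *Ppp1r3c*, which targets protein phosphatase 1 to glycogen, was at 108 to 204 CPM against 31.9 to 45.8 with constitutive loss and at 28.2 to 85.99 against 53.99 to 156 with acute loss, where its controls were higher. With a log2 *Ppp1r3c* effect of -0.71 (SE 0.27) in acute and 1.88 (SE 0.28) in constitutive loss, the difference was -2.59 (SE 0.39, edgeR adjusted p = 5.37e-05). *Il6ra*, the receptor subunit for IL-6 that sets the acute phase response, had log2 fold changes of -0.45 and 0.91 (adjusted p of the difference = 0.000425). *Fam107a* and *Ces4a* also had opposite effects, but single mice stood apart in both. *Fam107a* was at 6.98, 6.85, 2.298, 2.68 and 8.998 CPM in *Cebpa* ΔHep and at the floor in controls, at least 13.4-fold higher, and at 0.749, 1.15, 1.95, 18.3 and 1.99 CPM in *Cebpa* ΔHep,ERT2 against 8.69 to 34.04 CPM. *Ces4a*, a carboxylesterase, was at the floor in *Cebpa* ΔHep,ERT2, at least 8.13-fold lower than in controls, and at 5.37 to 29.7 CPM in *Cebpa* ΔHep against 4.26 to 16.6 CPM.

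**Figure D4:**
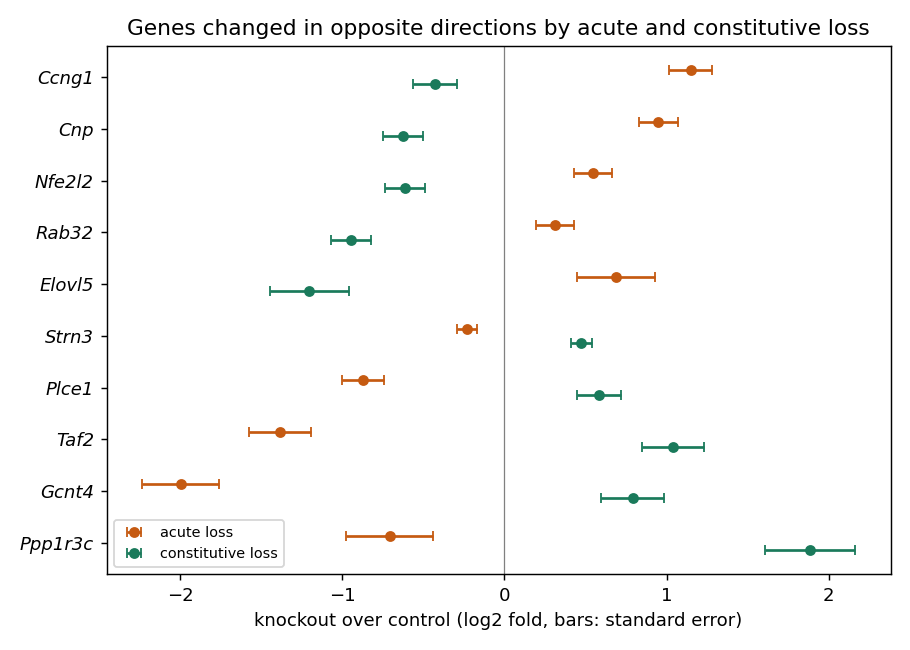
Genotype effect (x axis, log2 fold of knockout over control) of 10 genes (y axis) whose effects had opposite signs with acute loss (orange) and constitutive loss (green). Points are edgeR estimates and bars standard errors. The upper 5 genes were higher with acute and lower with constitutive loss, from Ccng1 to Elovl5, and the lower 5, from Strn3 to Ppp1r3c, the reverse.

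Other genes with a large positive difference, averaging at least 1 CPM, came from a fall with constitutive loss or a rise with acute loss. *Gadd45a*, a p53- and stress-induced gene, was at 0.828, 0.112, 0.405, 0.256 and 0.671 CPM in *Cebpa* ΔHep and 1.63, 5.64, 3.03, 3.45 and 2.27 CPM in controls. In HFCFD8W+T10D, *Gadd45a* was at 3.93, 2.39, 2.49, 0.712 and 2.09 CPM in *Cebpa* ΔHep,ERT2 mice and at 1.27, 0.517, 2.55, 0.711 and 1.18 CPM in *Cebpa* fl/fl mice. *Gadd45a* fell without overlap with constitutive loss and overlapped its controls with acute loss. *Gadd45a* had a log2 fold change of 0.91 (SE 0.40) with acute loss and -2.79 (SE 0.48) with constitutive loss, a difference of 3.70 (SE 0.63, edgeR adjusted p = 0.000272). *Atp8b5*, a flippase, and *Atp2b2*, a plasma membrane calcium pump, were in the same class. *Atp8b5* was at 0 to 0.449 CPM against 0.583 to 1.703 with constitutive loss and at 1.41 to 2.88 against 0.6096 to 1.57 with acute loss (adjusted p of the difference = 0.00135). *Atp2b2* was at the floor in *Cebpa* ΔHep, at least 2.70-fold lower than in controls (adjusted p of the difference = 0.003). *Mas1*, a G protein-coupled receptor for angiotensin peptides, was at 3.03 to 3.68 CPM against 0 to 0.579 with acute loss and at 0.7099 to 2.81 against 0.742 to 3.12 with constitutive loss. For *Mas1*, the log2 fold changes of 3.37 (SE 0.53) with acute and -0.42 (SE 0.47) with constitutive loss gave a difference of 3.79 (SE 0.72, adjusted p = 0.000857 in edgeR). *Gm4956*, a predicted gene, had log2 fold changes of -0.28 and -3.90 (adjusted p of the difference = 2.94e-05), and *Elf3*, an ETS factor of epithelia, of 3.52 and 0.34 (adjusted p of the difference = 0.0197). For *Elf3*, the adjusted p stayed under 0.05 in 18 of 20 fits that each left out 1 mouse (highest 0.0871, without HFCFD2W *Cebpa* fl/fl replicate 2) and in 9 of 10 processing alternatives (highest 0.136).

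A few genes moved the same way in both experiments by different amounts. *Cyp2a4*, a steroid 15α-hydroxylase, fell in both, to 60.7, 89.5, 60.2, 229 and 86.4 CPM from 473, 912, 554, 520 and 472 with acute loss and to 0.947, 0.112, 1.08, 2.56 and 0.269 from 33.7, 256, 132, 11.5 and 188 with constitutive loss. It fell by more with constitutive loss, and the acute controls were above the constitutive ones. With a log2 *Cyp2a4* effect of -2.48 (SE 0.51) in acute and -6.97 (SE 0.74) in constitutive loss, the difference was 4.49 (SE 0.90, edgeR adjusted p = 0.00142). *Ifi27l2b*, an interferon-inducible gene, was at 87.1 to 113 CPM against 28.3 to 49.1 with acute loss and at 40.5 to 53.1 against 6.62 to 11.8 with constitutive loss. *Ifi27l2b* had a log2 fold change of 1.44 (SE 0.13) with acute loss and 2.48 (SE 0.15) with constitutive loss, a difference of -1.04 (SE 0.20, edgeR adjusted p = 0.000917). *Spp1*, which encodes osteopontin, was higher in knockouts of both experiments without overlap, at 137 to 345 CPM against 35.3 to 52.96 with acute and 367 to 658 against 30.7 to 71.7 with constitutive loss. For *Spp1*, the log2 fold changes of 2.58 (SE 0.24) with acute and 3.60 (SE 0.26) with constitutive loss gave a difference of -1.02 (SE 0.33, adjusted p = 0.0435 in edgeR). The difference was weak, since the adjusted p stayed under 0.05 in 7 of 20 fits that each left out 1 mouse (highest 0.0834, without HFCFD2W *Cebpa* fl/fl replicate 2) and in 7 of 10 processing alternatives (highest 0.0954). *Tinag*, a basement membrane glycoprotein, was at the floor in both control groups, and rose at least 13.7-fold with acute and at least 2.93-fold with constitutive loss. For *Tinag*, the adjusted p stayed under 0.05 in 19 of 20 fits that each left out 1 mouse (highest 0.081, without HFCFD2W *Cebpa* fl/fl replicate 5) and in 9 of 10 processing alternatives (highest 0.0632). *Slc35f2*, a solute carrier, rose in both, with log2 fold changes of 1.11 and 2.44 (adjusted p of the difference = 0.0355). For *Slc35f2*, the adjusted p stayed under 0.05 in 11 of 20 fits that each left out 1 mouse (highest 0.104, without tamoxifen-treated *Cebpa* fl/fl replicate 5) and in 7 of 10 processing alternatives (highest 0.0962).

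The 985 genes that passed 2-fold in neither experiment had a median difference of -0.45. *Pde3b*, a phosphodiesterase that insulin activates, was at 49.3 to 59.3 CPM against 97.1 to 124 with acute loss and at 91.7 to 104 against 100 to 112 with constitutive loss. With a log2 *Pde3b* effect of -0.97 (SE 0.07) in acute and -0.13 (SE 0.07) in constitutive loss, the difference was -0.84 (SE 0.10, edgeR adjusted p = 8.83e-07). *Itpr1*, an IP3 receptor of the endoplasmic reticulum, had log2 fold changes of -0.85 and 0.23 (adjusted p of the difference = 8.65e-07). *Ttpa*, the α-tocopherol transfer protein, was lower in the interaction as well, with log2 fold changes of -0.84 and 0.30 (adjusted p of the difference = 2.94e-05). Long genes were more often lower: the share with a lower effect was 3.78% among the shortest of 5 equal groups by transcript length and 11.9% among the longest, and the share with a higher effect went from 5.13% to 2.51%. The median difference over these groups went from 0.07 to -0.12. With splines for length and GC content in the fit, a choice made after seeing the data, 1396 genes were called, of which 1199 were among the 1457.

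Further lists are given as members higher or lower in the interaction, against 4.45% higher and 6.79% lower over all genes. The fatty acid uptake and lipase list had 3 higher and 5 lower of 17, median 0.05. The lipid droplet list had 1 higher and 3 lower of 15, median -0.30. Pericentral (2 higher and 2 lower of 16, median 0.46) and periportal lists (2 higher and 2 lower of 14, median 0.04) had calls both ways. The interferon list had 3 higher and 0 lower of 39, median 0.70 (*Irf1*, *Tap1* and *Psmb9*), and its median went from 0.37 without *Cebpa* ΔHep,ERT2 replicate 2 to 1.10 without *Cebpa* ΔHep replicate 5. The biliary list had 1 higher and 0 lower of 30, median 0.97, the higher one being *Ehf*, an ETS factor at 1.54 to 2.47 CPM with acute loss against 0.102 to 0.463 and at 0 to 0.511 with constitutive loss against 0.142 to 0.552. The extracellular matrix list had 2 higher and 1 lower of 58, median 0.40. Biliary members were higher in 21 and lower in 1 case in the acute knockouts, and 4 and 0 in the constitutive ones (medians 1.67 and 0.34). For the extracellular matrix list these counts were 26 and 1, and 3 and 1 (medians 0.67 and 0.19). Over all genes, 15.2% were higher and 11.9% lower in the acute knockouts, and 6.9% and 6.24% in the constitutive ones. The lists of de novo lipogenesis (3 higher and 1 lower of 18, median 0.29), cholesterol synthesis (0 higher and 1 lower of 22, median 0.23), glycogen (3 higher and 2 lower of 17, median 0.13), fatty acid oxidation (2 higher and 2 lower of 29, median -0.17) and bile acids (2 higher and 3 lower of 30, median -0.09) had calls in both directions or in a small share. The gluconeogenesis list had 0 higher and 3 lower of 11, median -0.03, against 6.79% lower over all genes. Without *Cebpa* ΔHep,ERT2 replicate 1, the median of the cholesterol list turned to -0.06. The oxidative phosphorylation list had 0 higher and 1 lower of 40, median -0.11, and the integrated stress response list 1 higher and 3 lower of 28, median -0.29. *Hba-a1*, *Hba-a2* and *Hbb-bs*, which encode haemoglobin, were higher in the interaction. For *Hba-a2*, the adjusted p stayed under 0.05 in 6 of 20 fits that each left out 1 mouse (highest 0.134, without *Cebpa* ΔHep,ERT2 replicate 3) and in 5 of 10 processing alternatives (highest 0.165). For *Hbb-bs*, the adjusted p stayed under 0.05 in 13 of 20 fits that each left out 1 mouse (highest 0.0866, without *Cebpa* ΔHep,ERT2 replicate 3) and in 7 of 10 processing alternatives (highest 0.139). The 3 red cell markers, *Hba-a1*, *Hbb-bs* and *Alas2*, summed to 242 to 1322 CPM in the acute knockouts and 212 to 375 in their controls. They summed to 188 to 477 in the constitutive knockouts and 324 to 796 in theirs. This sum includes called genes and is no separate measure of blood. Pancreas, kidney, muscle and fat markers were at or near 0 in every library.

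**Figure D5:**
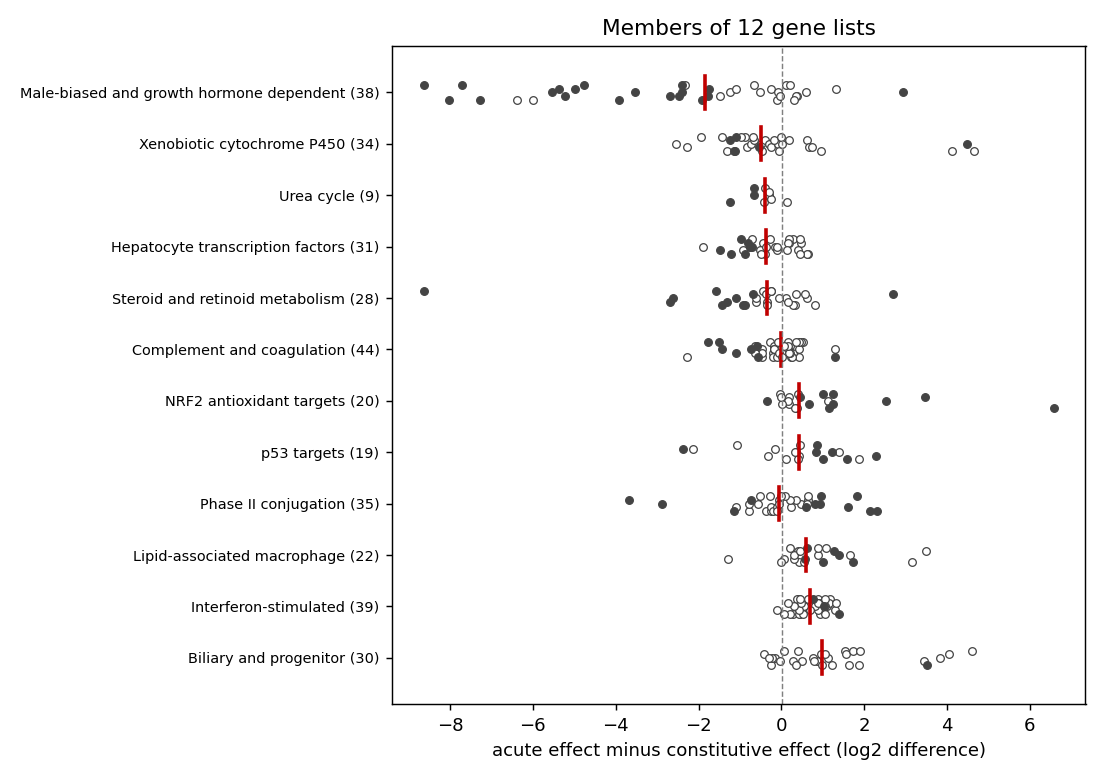
Acute effect minus constitutive effect (x axis, log2 difference) of the tested members of 12 gene lists (y axis, number tested in brackets). Filled points have an adjusted p under 0.05, open points do not, red lines are list medians and the dashed line the median of all genes tested. The male-biased list, with a median of -1.85, reaches furthest to the left, and NRF2 targets, with 9 of 20 higher, have most filled points to the right.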

How the data were processed

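Liver RNA of 30 male mice was sequenced as stranded poly(A) libraries, 1 library per mouse, and 20 libraries in 4 groups entered the comparison. The authors deposited expected counts per gene from RSEM, without normalization, for 55450 GENCODE genes, and the submitters' processing notes name Trimmomatic 0.36, STAR 2.5.1, Picard 1.84, RSEM 1.2.22, DESeq2 and build mm10. RSEM divides reads among the genes they fit, so values of near-identical family members are uncertain. A signal table of CPM scaled by TMM, which the authors deposited for the genes passing their filter, served for one alternative, and their FPKM table was not used. Groups follow the labels, and no library duplicated another.

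The expected counts were first rounded. Low-count genes were then removed by filterByExpr (edgeR 4.0.16 under R 4.3.3), 12964 genes were kept, libraries were scaled by TMM, and all 30 libraries in 6 groups were fitted together, so that the 10 libraries of the third experiment only inform the spread. Effects were tested with the quasi-likelihood F test and adjusted by the Benjamini-Hochberg method over all genes tested, at an adjusted p under 0.05, and 2-fold calls needed in addition a log2 change over 1. Levels per mouse are CPM of the library total after TMM scaling. A prior count of 2 entered the log2 CPM behind the deviations of knockouts from their controls, and the fits kept edgeR's default. A gene with 3 counts or fewer in every library of a group was at the floor, and its fold is a bound. Totals of 7996128 to 10257366 counts set the precision of low genes. Alternatives were DESeq2 1.42.0, limma 3.58.1 on the authors' CPM, other scalings and filters, the 20 libraries alone, the replicate number as a block, stricter calls, each mouse left out, and a length and GC correction chosen after seeing the data. Promoters came from RefSeq (GRCm38.p6).

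The genes that could be named were Cebpa and Spp1, the 10 largest positive and 10 largest negative differences (mean of at least 1 CPM, no overlap between the deviations of the knockouts from their controls), the 4 smallest p in each response class, and called members of 46 lists. Other genes were chosen after their values were seen, namely Gclm, Gclc, Txnrd1, Cdkn1a, Mdm2, Ghr, Stat5b, Dbp, Mup7, Mup15, Mup17 and Mup19. The members and lists were chosen with earlier results of these data known.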

Additional observations from a re-analysis of the deposited data

Results flagged for a closer look

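The genotype effect differed between acute and constitutive loss for 1457 genes by the test of the difference itself. Among the genes described one by one, the difference on the log2 scale was 2.17 for *Cebpa*, -1.02 for *Spp1*, 1.57 for *Cnp*, 1.58 for *Ccng1*, 1.26 for *Rab32*, 1.16 for *Nfe2l2*, -2.79 for *Gcnt4*, -2.42 for *Taf2*, -0.70 for *Strn3* and -1.45 for *Plce1*. The last 8 had opposite signs with acute and constitutive loss.

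Single mice stood far from the other 4 of their group in 10 of 86 groups of 5 checked over 22 genes. The rule was Dixon's ratio with a critical value of 0.71, which about 1 in 20 groups of normally distributed values pass. These were unlogged CPM, mostly of genes picked for large differences, and for *Mup10* and *Atp2b2* the other 4 mice were at 0. The 10 of 86 therefore cannot be read against 1 in 20. Among *Cebpa* ΔHep,ERT2 mice, replicate 4 was at 229 CPM of *Cyp2a4* (others 60.2 to 89.5), 1.30 CPM of *Mup10* (others 0) and 18.3 CPM of *Fam107a* (others 0.749 to 1.99), and replicate 1 was at 1.41 CPM of *Atp8b5* (others 2.47 to 2.88). Among the tamoxifen-treated *Cebpa* fl/fl mice, replicate 2 was at 912 CPM of *Cyp2a4* (others 472 to 554), replicate 3 at 6.37 CPM of *Ces4a* (others 1.16 to 1.81) and replicate 4 at 0.610 CPM of *Atp8b5* (others 1.39 to 1.57). Among *Cebpa* ΔHep mice, replicate 5 was at 0.128 CPM of *Atp2b2* (others 0) and 2.81 CPM of *Mas1* (others 0.7099 to 1.21), and among the *Cebpa* fl/fl mice of HFCFD2W replicate 4 was at 16.6 CPM of *Ces4a* (others 4.26 to 7.72).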

How the results depend on the processing

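No gene that could be named changed the sign of its difference under any alternative run, but several list medians did, without 1 mouse or under another setting (among them gluconeogenesis, cholesterol synthesis, phase II, bile acids, acute phase, complement, apolipoproteins, periportal, lymphocyte and neutrophil). The 1457 genes became 1161 with the 20 libraries alone, 1146 without a filter, 1383 with the authors' genes, 1466 with upper quartile scaling (771 higher and 695 lower), 1444 with size factors, 1659 with DESeq2, 1425 with the robust fit, 1690 with limma and 1396 with the length and GC correction. Replicate numbers did not pair the mice (correlations of same-numbered deviations -0.25 to 0.14, and no experiment in which every mouse matched its own number best). With the replicate block there were 903 genes (328 higher and 575 lower), 69 opposite and 9 same-direction genes, and a median of 0.55 in the imprinted list. At an adjusted p under 0.01 there were 594 (191 and 403), with 116 acute only, 73 constitutive only, 26 opposite and 7 same-direction genes, and with a difference over 2-fold 532 (236 and 296), 68 of them opposite. Without a filter, 81 were opposite and the imprinted median was 0.48. The 20 libraries alone gave list medians of 0.49 (biliary), 0.36 (imprinted) and 0.50 (neutrophil), and limma on log2(value + 1) gave -1.37 (male-biased), 0.42 (biliary) and 0.17 (imprinted). The cause of these shifts was not tested.

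Leaving out each mouse gave at least 1121 genes, when replicate 4 of the tamoxifen-treated *Cebpa* fl/fl mice was absent, and at most 1726, when replicate 5 of the *Cebpa* ΔHep,ERT2 mice was absent, 432 to 661 higher and 673 to 1065 lower, with 180 to 296 acute only, 99 to 131 constitutive only, 81 to 150 opposite and 12 to 20 same-direction genes. List medians ran from -0.29 to 0.15 (gluconeogenesis), -0.39 to -0.10 (lipid droplet), 0.0097 to 0.30 (fatty acid uptake), -0.17 to 0.45 (acute phase), -0.49 to -0.27 (hepatocyte factors), 0.50 to 0.94 (imprinted), 0.054 to 0.38 (Hippo) and -0.63 to 0.35 (neutrophil). Of 212 genes under the naming rule, 159 kept their call without any one mouse and 138 in all alternatives as well.

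Low genes are limited by depth, the controls of the experiments differ, and the lists were not tested as sets.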
